A study of Mus musculus with 217 samples.

Results

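The genes described here encode the subunits of the oxidative phosphorylation machinery, measured by RNA-Seq in the striatum and cortex of the LacQ140 mouse, an inducible knock-in model of Huntington's disease (HD). Members were chosen by gene symbol alone, as the protein-coding genes of the Nduf, Sdh, Uqcr, Cox4 to Cox8 and Atp5 families together with *Cyc1* and the mt-Nd, mt-Co, *mt-Cytb* and mt-Atp genes. This rule found 99 of the 54532 genes counted, 86 of them on 19 nuclear chromosomes and 13 on the mitochondrial chromosome, and left out 12 pseudogenes and noncoding genes with such symbols. All mice were labelled C57BL/6, on a background given in the methods as C57BL/6J, and carried a transgene in which the beta-actin promoter drives a Lac repressor in every tissue. LacQ140 mice also carried 1 copy of an *Htt* allele with an expanded CAG repeat (mHtt) and Lac operators around its start site, next to 1 wild-type *Htt* allele, and received isopropyl β-D-1-thiogalactopyranoside (IPTG), which releases the repressor, from embryonic day 5 onward. LacQ140_A mice had the same alleles and never received IPTG, so that mHtt was always lowered. In LacQ140_2M and LacQ140_8M mice IPTG was withdrawn at 2 or 8 months of age. The control mice, with the repressor transgene and only wild-type *Htt*, were kept with IPTG (WT+IPTG) or without it (WT). Tissue came from mice aged 6 or 12 months, and LacQ140_8M was sampled at 12 months only. Each group held 10 mice (5 females, named F1 to F5, and 5 males, named M1 to M5), except that WT, LacQ140 and LacQ140_8M striatum at 12 months held 9.

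Oxidative phosphorylation couples the oxidation of NADH and succinate to ATP synthesis in the inner mitochondrial membrane. Complexes I (NADH dehydrogenase, the Nduf and mt-Nd genes), III (the cytochrome bc1 complex, the Uqcr genes, *Cyc1* and *mt-Cytb*) and IV (cytochrome c oxidase, the Cox and mt-Co genes) pump protons, complex II (succinate dehydrogenase, the Sdh genes) feeds in electrons without pumping, and complex V (ATP synthase, the Atp5 and mt-Atp genes) uses the gradient to make ATP. The mitochondrial genes are transcribed together from their own small chromosome as long precursors that are cut into single mRNAs, whereas each nuclear subunit gene has its own promoter and its protein is imported. Loss of complex II activity by the toxin 3-nitropropionic acid damages the striatum, and weakened energy metabolism is a long-discussed feature of HD. Some Cox subunits come as alternative forms: *Cox4i2* in place of *Cox4i1* at low oxygen, and *Cox6a2*, *Cox7a1* and *Cox8b* in heart and skeletal muscle in place of the forms used in most cells.

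By complex, the nuclear members comprised 35 genes of complex I, 4 of complex II, 9 of complex III, 19 of complex IV (*Ndufa4* among them, which is counted to complex IV despite its name) and 17 of complex V, and 2 with such a symbol that are not counted to a complex (*Ndufa4l2* and *Atp5s*). The mitochondrial members comprised 7 genes of complex I, 1 of complex III, 3 of complex IV and 2 of complex V. Library totals ran from 33292014 to 68038785 counts over 217 libraries. The 6-month and 12-month libraries were labelled as different batches, so age and batch cannot be told apart and all tests were made within a single age. Counts of *Htt*, which sum both alleles, averaged 102 CPM (counts scaled to a common library size by the TMM method) in LacQ140 striatum at 6 months against 87.7 in LacQ140_A and 88.9 in LacQ140_2M. At 12 months they averaged 111 in LacQ140 striatum against 93.4 in LacQ140_A and 100.3 in LacQ140_2M, and 111 again in LacQ140_8M. In cortex at 12 months they averaged 23.9 in LacQ140 against 16.99 in LacQ140_A, 17.7 in LacQ140_2M and 17.99 in LacQ140_8M. As a sum of both alleles, *Htt* in LacQ140_8M thus lay at the level of LacQ140 in striatum and at that of the other lowering groups in cortex. By a protein assay, the paper reports less soluble mutant huntingtin in the striatum of every lowering group than in LacQ140. The spiny neuron markers *Drd1*, *Drd2*, *Ppp1r1b* and *Pde10a* were measured in every striatal library and fell in LacQ140 striatum at both ages (4 of 4 at each). In bulk tissue, fewer cells of a type and less RNA per cell cannot be told apart.

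Several members share their sequence with other annotated genes, so that the same read can be counted for either. The first 100 bases of 4 mitochondrial members are shown because each lies within a longer run that is letter for letter the same in a pseudogene on chromosome 1 (24611535 to 24616197). They are written 5′ to 3′ on the plus strand of GRCm38, with the ATG start codon in capitals. The identical run was 783 bases for *mt-Co3*, 681 for *mt-Co2*, 678 for *mt-Atp6* and 294 for *mt-Nd4l*, all far longer than the 100-base reads.
mt-Co2, chrM:7013-7112: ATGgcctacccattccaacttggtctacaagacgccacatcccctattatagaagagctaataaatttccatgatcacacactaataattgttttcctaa
mt-Atp6, chrM:7927-8026: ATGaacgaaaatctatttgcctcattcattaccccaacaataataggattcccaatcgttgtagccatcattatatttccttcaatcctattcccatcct
mt-Co3, chrM:8607-8706: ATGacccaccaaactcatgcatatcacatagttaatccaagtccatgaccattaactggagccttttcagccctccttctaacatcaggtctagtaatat
mt-Nd4l, chrM:9877-9976: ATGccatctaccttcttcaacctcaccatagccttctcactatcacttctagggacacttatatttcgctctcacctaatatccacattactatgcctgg
For *mt-Co2*, 91.3% of the counts of the gene and its copy together stood on the copy *Gm28661*, for *mt-Atp6* 89.1% on *Gm10925*, for *mt-Co3* 88.9% on *Gm28437* and for *mt-Nd3* 35.9% on *Gm28438*. For *mt-Nd4l* and *mt-Nd4*, equally identical copies (*Gm10222* and *Gm28439*) held 0 counts. The counts of *mt-Co3* or *mt-Atp6* were thus a small part of those that match its sequence, and results on these genes were repeated with the counts of the copy added. Among the nuclear members, 92.0% of the counts of *Atp5g2* and its processed copy *Gm10175* on chromosome 7 stood on the copy, and *Ndufb4* shares sequence with *Ndufb4c*. The symbol *Atp5o* belongs to 2 gene identifiers, of which ENSMUSG00000022956 carried nearly all counts.

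Per length, with copies added, the mitochondrial members stood above every nuclear member in WT striatum at 6 months. On a TPM scale (CPM per length, summing to the same total in each library), *mt-Co1* averaged 43510 ± 3837 (SD, n = 10), *mt-Co3* 37630, *mt-Co2* 34040, *mt-Atp6* 25910 and *mt-Cytb* 23190, and the lowest of the 13, *mt-Nd6*, averaged 4272. The highest nuclear members were *Cox4i1*, the common form of the largest nuclear subunit of complex IV, at 2683 ± 354, and *Atp5b*, the catalytic beta subunit of ATP synthase, at 1843 ± 63.7. The median over nuclear members was 269 in complex I, 276.4 in complex II, 295 in complex III, 534 in complex IV and 418 in complex V. Alternative forms were rare: *Cox4i2* averaged 14.4, *Ndufa4l2* 7.69, *Cox7a1* 5.87 and *Cox8b* 2.85, and *Cox8c* was at 0 in all 10 libraries.

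Taken as a share of all counts, the 86 nuclear members made up 1.67% of a striatal library at 6 months (mean of 50, range 1.32 to 2.07%) and 1.29% at 12 months (1.13 to 1.54%, n = 57). In cortex they made up 1.78% at 6 months (1.28 to 2.51%, n = 50) and 3.902% at 12 months (2.74 to 5.06%, n = 60), so the 12-month cortex libraries all stood above every other library. The 13 mitochondrial members with their copies made up 10.1% and 9.94% of striatal libraries and 10.5% and 9.19% of cortical libraries at 6 and 12 months, with single libraries from 5.99 to 17.6%.

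**Figure D1:**
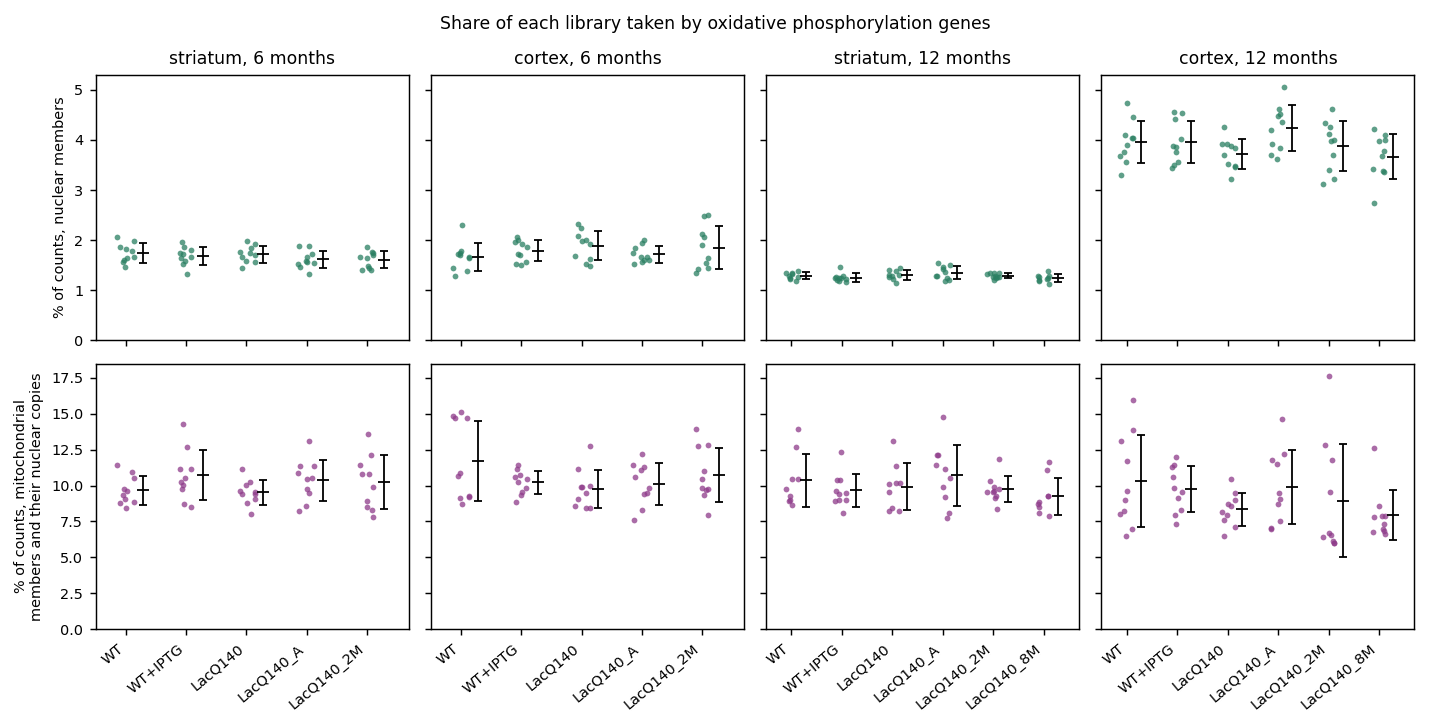
Percent of all counts on the 86 nuclear members (upper row) and on the 13 mitochondrial members with their nuclear copies (lower row), 1 point per library by group, with the mean and SD as bars, for both tissues and ages. The nuclear share lay between 2.74 and 5.06% in 12-month cortex and between 1.13 and 2.51% in the other panels, while groups within a panel overlapped.

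The first comparison, LacQ140 against WT+IPTG at the same IPTG exposure, addresses what expression of mHtt changes. In striatum at 6 months the mitochondrial members were lower in LacQ140: the log2 fold change was below 0 for 13 of 13, with a median of −0.22 (range −0.37 to −0.11), and 4 fell by the test, *mt-Co3*, *mt-Nd1*, *mt-Nd2* and *mt-Nd3*. The 13 are not independent results, here or in the counts further on. They share precursor RNAs, and with group means removed *mt-Co1* had a Pearson's r of 0.97 with *mt-Nd1* over the striatal libraries of 6 months. Among all 35808 genes tested, 7.93% were called in this comparison and 3.96% fell, a call being an adjusted p under 0.05 in edgeR's quasi-likelihood test and a change of at least 20%. Of the 86 nuclear members none was called, with 4 at an unadjusted p under 0.05, and their median was −0.04, beside −0.02 in protein-coding genes with transcripts up to 1000 nt. DESeq2 called 3 members and 7.80% of all genes.

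Markers of other cell types were also lower in LacQ140 striatum at 6 months. The oligodendrocyte marker *Mbp* fell by 0.27 on the log2 scale. The summed astrocyte markers ran from 957 to 1226 CPM in WT+IPTG and from 810.2 to 948 in LacQ140, without overlap, with 1 of 4 fallen (*Aqp4*). Microglial markers had a median sum of 321.2 CPM in WT+IPTG and 285.1 in LacQ140, with 2 of 4 fallen (*Cx3cr1* and *P2ry12*). Endothelial markers had a median sum of 149.6 CPM in WT+IPTG and 125.3 in LacQ140 (0 of 3 called), parvalbumin interneuron markers of 222.9 and 178.7 (1 of 3 fallen, *Pvalb*) and mural markers of 220.7 and 183 (2 of 4 fallen, *Rgs5* and *Kcnj8*). Of 3 choroid plexus markers *Ttr* fell, with summed levels from 5.92 to 701 and from 7.82 to 69.2. None of these markers was at 0 in any striatal library of that age, and their part in the values of the mitochondrial members was not tested.

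*mt-Co3* (chrM:8607-9390, plus strand) encodes a subunit at the core of complex IV. Its level in WT+IPTG striatum at 6 months ran from 1306 through a median of 1670 to 2196 CPM, and in LacQ140 from 1000 through 1328 to 1612. The groups overlapped, with 5 of 10 LacQ140 mice below the lowest WT+IPTG mouse and 10 of 10 below the WT+IPTG median, and the log2 fold change was −0.37 ± 0.09 (SE, adjusted p = 0.0039). *mt-Nd1*, *mt-Nd2* and *mt-Nd3* encode membrane subunits of complex I. For *mt-Nd1* (chrM:2751-3707) the values were 5144, 6671 and 9753 CPM in WT+IPTG (lowest, median, highest) and 4687, 5773 and 6812 in LacQ140, a log2 fold change of −0.28 ± 0.09 (adjusted p = 0.0348). For *mt-Nd2* (chrM:3914-4951) they were 3484, 4391 and 6113 against 2958, 3787 and 4549, a log2 fold change of −0.28 ± 0.09 (adjusted p = 0.0329). *mt-Nd3*, the shortest of the 4, gave 528, 670 and 1050 CPM against 386, 579 and 799, a log2 fold change of −0.34 ± 0.12 (adjusted p = 0.0456). In each of these 3 genes 9 of 10 LacQ140 mice lay below the WT+IPTG median while the ranges overlapped.

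The WT mice without IPTG lay between: *mt-Co3* averaged 1436 ± 294 CPM in WT, 1684 ± 307 in WT+IPTG and 1306 ± 195 in LacQ140, and *mt-Nd1* 6145 ± 638, 6884 ± 1435 and 5651 ± 663. With the 2 WT groups pooled as the control, 1 member (*mt-Nd3*) was called, with 7.50% of all genes. The call of *mt-Co3* was kept without any 1 of the 20 libraries. That of *mt-Nd1* was lost without LacQ140 F1, F4, M2 or M3 or WT+IPTG F2 or F5, that of *mt-Nd2* without LacQ140 F1, F4, M2, M3 or M4 or WT+IPTG F2, F5 or M1, and that of *mt-Nd3* without LacQ140 F2, F3, F4, M1, M3, M4 or M5 or WT+IPTG F2, F5, M1, M4 or M5. Without any 1 library the log2 fold changes lay between −0.32 and −0.22 for *mt-Nd1*, between −0.31 and −0.21 for *mt-Nd2* and between −0.41 and −0.26 for *mt-Nd3*. With the counts of the nuclear copies added, 5 members were called (7.90% of all genes), the fifth being *mt-Atp6*, a subunit of the proton channel of ATP synthase, at −0.31 ± 0.10 (adjusted p = 0.036), where the gene as counted gave −0.22 (adjusted p = 0.205). In that count *mt-Co3* averaged 14870 ± 3856 CPM in WT+IPTG and 11140 ± 917 in LacQ140, and its log2 fold change was −0.42 (adjusted p = 0.0058). For *mt-Nd3* with its copy it was −0.35 (adjusted p = 0.00115).

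The other mitochondrial members of complex I were uncalled, with *mt-Nd4l* at −0.35 and *mt-Nd4* at −0.25 (adjusted p = 0.0936 for both), as were *mt-Co1*, the catalytic subunit of complex IV, at −0.18 (adjusted p = 0.196) and *mt-Cytb* at −0.14 (adjusted p = 0.324). Both mitochondrial ribosomal RNAs, which come from the same chromosome and are no members, fell as well, *mt-Rnr1* by 0.49 and *mt-Rnr2* by 0.45 on the log2 scale (adjusted p = 5.12e-06 and 0.000475). Among the nuclear members at 6 months, *Sdha*, the flavoprotein of complex II, averaged 422 ± 21.7 CPM in WT+IPTG and 440 ± 29.2 in LacQ140, a log2 fold change of 0.06 (adjusted p = 0.406). *Cox4i1* averaged 894 ± 122 and 862 ± 122 CPM, a log2 fold change of −0.05 (adjusted p = 0.812), and *Atp5b* 1551 ± 98.0 and 1582 ± 74.5 CPM, with a 95% interval of the log2 fold change from −0.05 to 0.11. The medians of the nuclear members were −0.03 in complex I, 0.01 in complex II, −0.01 in complex III, −0.06 in complex IV and −0.07 in complex V, against −0.28, −0.14, −0.18 and −0.16 for the mitochondrial members of complexes I, III, IV and V.

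**Figure D2:**
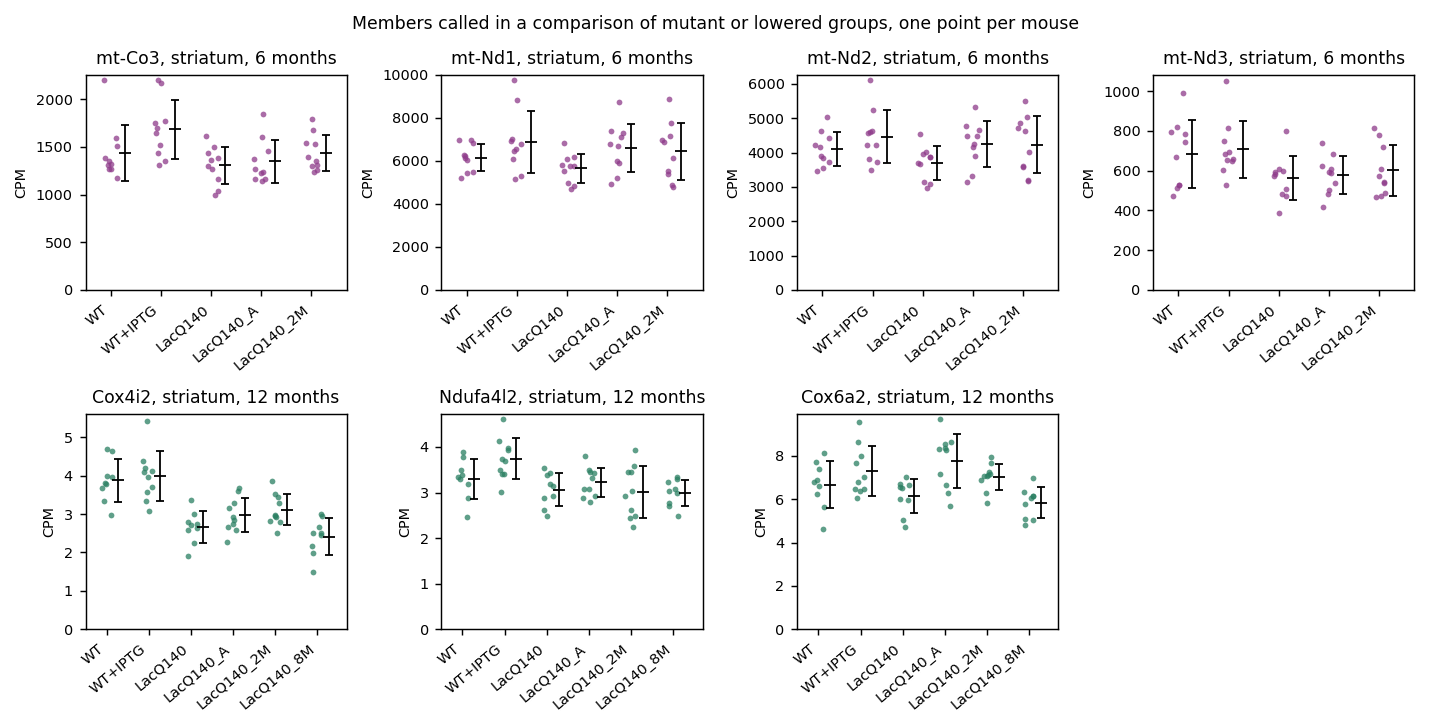
CPM in each mouse by group for the 4 members called at 6 months in striatum (mt-Co3, mt-Nd1, mt-Nd2, mt-Nd3) and for Cox4i2, Ndufa4l2 and Cox6a2 at 12 months, with the mean and SD. For Cox4i2, 8 of 9 LacQ140 mice lay below the lowest WT+IPTG mouse, and for the mitochondrial members the ranges overlapped.

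At 12 months in striatum the members called were other ones: 2 nuclear members fell, *Cox4i2* and *Ndufa4l2*, and no mitochondrial member was called (1 at an unadjusted p under 0.05). In this comparison 9.44% of all genes tested were called and 4.86% fell. The medians were −0.03 over nuclear and −0.05 over mitochondrial members, the latter with 10 of 13 below 0 and a range from −0.27 (*mt-Co3*) to 0.38 (*mt-Co2*), which were −0.14 and −0.05 with their copies added, and 12 nuclear members had an unadjusted p under 0.05, 3 of them above 0. DESeq2 called 2 members and 9.05% of all genes.

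*Cox4i2* (chr2:152754173-152765037, plus strand) encodes the low-oxygen form of subunit 4 of complex IV, a transcript known in brain mainly from pericytes, the mural cells of capillaries. Its level ran from 3.07 through a median of 4.03 to 5.41 CPM in WT+IPTG and from 1.90 through 2.71 to 3.36 in LacQ140. LacQ140 mice were low as a group, 8 of 9 below the lowest WT+IPTG mouse, and the log2 fold change was −0.58 ± 0.10 (95% interval −0.78 to −0.38, adjusted p = 1.53e-05). Untreated WT mice, at 3.87 ± 0.55 CPM, lay at the WT+IPTG level of 3.99 ± 0.65, and the call was kept without any 1 library. At 6 months *Cox4i2* averaged 4.50 ± 0.68 in WT+IPTG and 4.11 ± 0.71 CPM in LacQ140, a log2 fold change of −0.14 (adjusted p = 0.447). The common form *Cox4i1* averaged 599 ± 70.8 and 564 ± 49.6 CPM at 12 months, a log2 fold change of −0.09 (adjusted p = 0.499).

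*Ndufa4l2* (chr10:127514967-127517154, plus strand, overlapping *Shmt2* on the other strand) is the low-oxygen relative of *Ndufa4* and is likewise known from pericytes. Its level ran from 3.004 through 3.71 to 4.61 CPM in WT+IPTG and from 2.49 through 3.14 to 3.53 in LacQ140, with 4 of 9 LacQ140 mice below the lowest WT+IPTG mouse. The log2 fold change was −0.29 ± 0.09 (adjusted p = 0.0162), and the call was lost without LacQ140 F5 or WT+IPTG M4. The WT mice averaged 3.30 ± 0.43 CPM, between LacQ140 (3.07 ± 0.37) and WT+IPTG (3.74 ± 0.45). Of 4 mural cell markers 2 fell at 12 months, *Rgs5* by 0.30 and *Kcnj8* by 0.28 on the log2 scale. The same pair fell at 6 months, when neither *Cox4i2* nor *Ndufa4l2* was called. At that age 2 of 10 LacQ140 mice lay below the WT+IPTG median of *Ndufa4l2*. At 12 months the summed level of the 4 markers ran from 198 to 250.2 CPM in WT+IPTG and from 175 to 213 in LacQ140. None of the 4 was at 0 in any library, and their part in the result was not tested. Endothelial markers summed to 135 to 180.0 CPM in WT+IPTG and 119 to 165 in LacQ140, with 1 of 3 called (*Flt1*, which fell by 0.26 on the log2 scale).

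*Cox6a2* (chr7:128205435-128206387, minus strand, overlapping *Itgad* on the other strand) is the muscle form of a complex IV subunit and in brain is known from parvalbumin interneurons. It ran from 6.04 through 6.90 to 9.57 CPM in WT+IPTG and from 4.70 through 6.53 to 7.01 in LacQ140 at 12 months, with 4 of 9 LacQ140 mice below the lowest WT+IPTG mouse. Its log2 fold change of −0.25 ± 0.09 missed the threshold (adjusted p = 0.0559) and the 20% bound, and passed both when the length slope described further on was added to the model (−0.29, adjusted p = 0.0021). Among the 3 parvalbumin interneuron markers *Pthlh* fell by 0.57 on the log2 scale, and their summed level ran from 163 to 294 CPM in WT+IPTG and from 149 to 221.1 in LacQ140. *Ndufs3*, a core subunit of complex I, had an adjusted p of 0.0193 with a log2 fold change of −0.17, which is under the 20% bound. *Sdha* averaged 455 ± 11.7 and 466.2 ± 13.5 CPM, and *Atp5b* 1371 ± 77.5 and 1360 ± 60.8 CPM with an interval of the log2 fold change from −0.07 to 0.05.

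**Figure D3:**
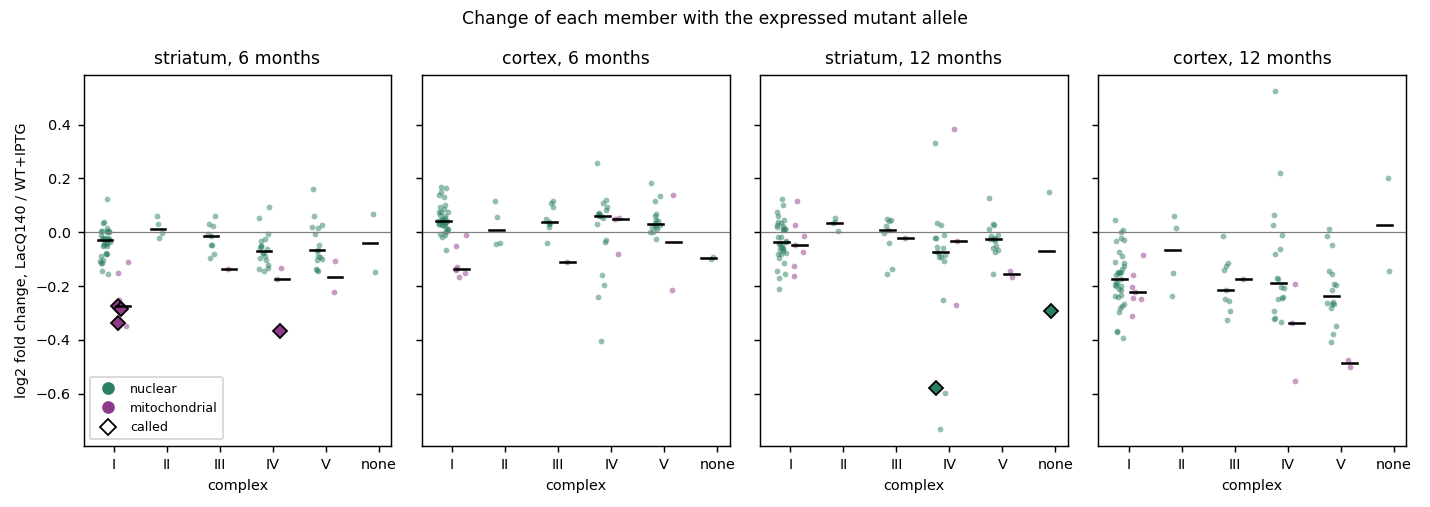
Log2 fold change of LacQ140 against WT+IPTG for the members by complex, nuclear members in green and mitochondrial members in purple, with diamonds for called members and short lines for the medians of the members shown, for both tissues and ages (Cox8c and the second Atp5o identifier are not drawn). Called members stood only in the striatal panels, 4 mitochondrial at 6 months and 2 nuclear at 12 months.

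In cortex no member was called in LacQ140 against WT+IPTG at either age by edgeR or by DESeq2, where 0.881% of all genes tested were called at 6 months and 0.0899% at 12 months. At 6 months no member had an unadjusted p under 0.05, and the medians were 0.04 over nuclear and −0.11 over mitochondrial members. At 12 months 32 nuclear members, all below 0, and 4 mitochondrial members had an unadjusted p under 0.05, and the medians were −0.19 and −0.24. Short protein-coding genes (−0.15) and cytosolic ribosomal protein genes (−0.20) had medians near these. A fit of these 2 groups alone called 12 members at 12 months and 1.41% of all genes, and with the length slope described further on in that fit 9 members and 0.683%. The summed choroid plexus markers had a median of 564 CPM in LacQ140 cortex at 12 months (range 5.54 to 1099) against 17.2 in WT+IPTG (2.13 to 1321) and 13.7 in LacQ140_A (5.93 to 1042), with 0 of 3 called. The parvalbumin interneuron markers had medians of 268.5, 324.9 and 343.6 CPM (0 of 3 called), and the part of both lists in these values was not tested. The mitochondrial member with the largest difference there was *mt-Co3*, which ran from 1503 through 2276 to 3440 CPM in WT+IPTG and from 1318 through 1482 to 2062 in LacQ140, with 6 of 10 LacQ140 mice below the lowest WT+IPTG mouse (log2 fold change −0.55, adjusted p = 0.467, and −0.49 with its copy added). *Cox4i2* averaged 3.35 ± 0.60 and 3.43 ± 0.81 CPM at 12 months.

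Whether the LacQ140 difference itself differed between the tissues was tested with the mouse as a block. At 12 months 1 member was called, *Cox4i2*, whose log2 fold change was lower in striatum than in cortex by 0.57 ± 0.16 (95% interval of the difference −0.89 to −0.25, adjusted p = 0.0374, 19 mice), with 3.51% of all genes called and 2.34% lower. Without the mouse as a block the difference of *Cox4i2* was −0.58 and was not called (adjusted p = 0.05295), while *Ndufb6*, an accessory subunit of complex I, was (adjusted p = 0.04885). The cortex libraries in this test were those with a length slope of −0.02 on average against 0.54 in striatum and a nuclear share of 3.902% against 1.29%, and tissue cannot be told apart from these properties of the libraries. With the length slope in the model the difference was −0.71 (adjusted p = 0.00384). The call of *Cox4i2* was kept in 7 of 19 fits without 1 mouse and lost without LacQ140 F3, F4, F5, M2, M3 or M4 or WT+IPTG F1, F2, F4, M3, M4 or M5, where the difference lay between −0.64 and −0.51. In cortex at 12 months the summed mural markers ran from 127 to 178 CPM in WT+IPTG and from 134 to 201 in LacQ140, with 0 of 4 called. At 6 months no member was called in this test (1.39% of all genes), with 2 nuclear and 3 mitochondrial members at an unadjusted p under 0.05, and DESeq2 was not run for it.

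The lowering groups address whether less mHtt, throughout life or from 2 or 8 months on, moved these levels from those of LacQ140, which is the shared control of these comparisons and was itself compared with WT+IPTG. LacQ140 mice were on IPTG and the lowering groups were off it when sampled, so less mHtt and the absence of IPTG cannot be told apart in them. For the mitochondrial members the median difference of WT+IPTG against WT, given further on, was 0.16 in striatum and −0.27 in cortex at 6 months, larger in size than those of the lowering groups in the same tissue. In striatum the WT mice off IPTG were thus the lower ones, while LacQ140_A and LacQ140_2M, also off it, stood above LacQ140. In cortex both WT and LacQ140_2M were the higher ones off IPTG. In 9 of the 10 comparisons of a lowering group with LacQ140 no member was called by edgeR's quasi-likelihood test or by DESeq2. The exception was *Cox6a2*, which rose in LacQ140_A striatum at 12 months, where 0.910% of all genes were called and 0.562% rose. It ran from 5.71 through 8.30 to 9.69 CPM in LacQ140_A against 4.70 through 6.53 to 7.01 in LacQ140, overlapping ranges, with a log2 fold change of 0.34 ± 0.09 (adjusted p = 0.0389). The call was lost without LacQ140 F4, M2, M3 or M4 or LacQ140_A F1, F2, F3, F5, M4 or M5, with values between 0.30 and 0.38, and in a fit of these 2 groups alone (adjusted p = 0.107). LacQ140_2M averaged 7.03 ± 0.61 and LacQ140_8M 5.83 ± 0.71 CPM, neither called against LacQ140. The summed parvalbumin interneuron markers ran from 160 to 266.7 CPM in LacQ140_A. Of the spiny neuron markers *Drd1*, *Drd2*, *Ppp1r1b* and *Pde10a*, only *Ppp1r1b* was called in LacQ140_A striatum at 12 months, where it rose by 0.30 on the log2 scale. The part of these markers in the value of *Cox6a2* was not tested.

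*Cox4i2* at 12 months in striatum averaged 2.66 ± 0.42 CPM in LacQ140, 2.97 ± 0.45 in LacQ140_A, 3.11 ± 0.40 in LacQ140_2M and 2.41 ± 0.48 in LacQ140_8M. The log2 fold changes against LacQ140 were 0.16, 0.22 and −0.15 (adjusted p = 0.679, 0.568 and 0.864), so the lowering groups were not told apart from LacQ140 at this spread. Summed mural markers had medians of 189 CPM in LacQ140, 195 in LacQ140_A, 190.2 in LacQ140_2M and 175 in LacQ140_8M, beside a range of 198 to 250.2 in WT+IPTG and of 191 to 218 in WT. *Ndufa4l2* averaged 3.23, 3.02 and 2.99 CPM in LacQ140_A, LacQ140_2M and LacQ140_8M, beside 3.07 in LacQ140.

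For the mitochondrial members in striatum at 6 months the median log2 fold change against LacQ140 was 0.14 in LacQ140_A and 0.14 in LacQ140_2M, with 13 of 13 above 0 in each. No member was called there (1.88% and 1.26% of all genes called), with 3 and 2 mitochondrial and 1 and 2 nuclear members at an unadjusted p under 0.05. The genes that had fallen in LacQ140 gave log2 fold changes in LacQ140_A of 0.05 for *mt-Co3* (adjusted p = 0.915), 0.04 for *mt-Nd3* (adjusted p = 0.953), 0.22 for *mt-Nd1* (adjusted p = 0.275) and 0.21 for *mt-Nd2* (adjusted p = 0.304). In LacQ140_2M they were 0.14, 0.10, 0.19 and 0.20 in that order (adjusted p = 0.636, 0.778, 0.449 and 0.358). With the counts of the copies added, the values in LacQ140_A were 0.17 for *mt-Co3* (adjusted p = 0.583) and 0.20 for *mt-Nd3* (adjusted p = 0.231), and in LacQ140_2M 0.16 and 0.19, none of them called. As counted, levels in LacQ140_A and LacQ140_2M averaged 1348 CPM (range 1138 to 1843) and 1438 ± 189 for *mt-Co3*, beside 1306 ± 195 in LacQ140, and 578 ± 95.5 and 601 ± 128 for *mt-Nd3*, beside 561 ± 110.2. They averaged 6593 ± 1131 and 6437 ± 1335 CPM for *mt-Nd1* and 4248 ± 660 and 4233 ± 822 for *mt-Nd2*. The medians of the nuclear members were −0.05 and −0.06. Spiny neuron markers moved in the same direction: *Drd1*, *Drd2* and *Pde10a* rose in both groups, by 0.33 to 0.49 on the log2 scale, and *Ppp1r1b* rose in LacQ140_A (0.30). The summed mural markers had medians of 183 CPM in LacQ140, 216 in LacQ140_A and 207 in LacQ140_2M. The 3 pituitary markers rose in LacQ140_A striatum at 6 months (*Prl* by 6.07 on the log2 scale), with a summed level of up to 115.4 CPM in a single library, and the part of these markers in the values of the members was not tested.

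At 12 months in striatum the medians against LacQ140 were 0.09 over nuclear and 0.14 over mitochondrial members in LacQ140_A, −0.01 and −0.02 in LacQ140_2M (0.608% of all genes called), and −0.10 and −0.12 in LacQ140_8M (0.00565%). Members at an unadjusted p under 0.05 numbered 12 nuclear and 2 mitochondrial in LacQ140_A, 2 nuclear in LacQ140_2M, and 10 nuclear and 1 mitochondrial in LacQ140_8M. Short protein-coding genes had a median of −0.10 in LacQ140_8M as well. In cortex at 6 months LacQ140_A had no member at an unadjusted p under 0.05 (0.00834% of all genes called), and LacQ140_2M had 3 nuclear and 5 mitochondrial members (0% called), with a mitochondrial median of 0.20. There the mice off IPTG had the higher mean in both genotypes for *mt-Atp6* with its copy, at 8883 CPM in LacQ140_2M against 7210.0 in LacQ140 and 10210 in WT against 7693 in WT+IPTG, neither called. In cortex at 12 months LacQ140_A had many members under that level without a call: 62 nuclear members had an unadjusted p under 0.05, 61 of them above 0, with a median of 0.27, beside 0.28 in short protein-coding genes and 0.35 in ribosomal protein genes. Of all genes 0.0435% were called, a share of calls that is no background for a count at an unadjusted p. There *Cox4i1* had a log2 fold change of 0.43 (adjusted p = 0.208), and a fit of the 2 groups alone called 50 members, with 6.06% of all genes called in it. The same fit with the length slope called none, with 0.0448% of all genes. LacQ140_2M had 7 nuclear and 2 mitochondrial members under 0.05 (0.0841% of all genes called), and LacQ140_8M none (0%).

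IPTG itself was examined as WT+IPTG against WT. No member was called in either tissue at either age by edgeR or DESeq2, where 0.584% and 0.218% of all genes were called in striatum and 0.609% and 0% in cortex at 6 and 12 months. In striatum at 6 months the mitochondrial members were above 0 in 13 of 13, with a median of 0.16, and 3 mitochondrial and 1 nuclear member had an unadjusted p under 0.05. This comparison shares the WT+IPTG libraries with that of LacQ140, in which the same 13 genes had a median of −0.22. For *mt-Co3* the log2 fold change of WT+IPTG against WT was 0.23 (adjusted p = 0.379, and 0.15 with its copy added), and for *mt-Nd1* it was 0.16. In cortex at 6 months 12 of 13 mitochondrial members were below 0, with a median of −0.27, and 8 mitochondrial and 2 nuclear members had an unadjusted p under 0.05. Of these 13, *mt-Nd3* as counted had the largest difference at −0.70 (adjusted p = 0.160). With its copy added it stood at −0.38 (adjusted p = 0.316), and the members farthest from 0 were then *mt-Atp8* at −0.50 and *mt-Atp6* at −0.41. At 12 months 1 nuclear member in striatum and none in cortex reached that level. *Ucp2*, an uncoupling protein of the inner membrane that is no member, rose in WT+IPTG at 6 months in both striatum (0.67) and cortex (0.81, both on the log2 scale).

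Striatum was compared with cortex in the WT mice with both tissues. At 6 months, in 10 mice, 17 of 98 members tested were called, 7 higher and 10 lower in striatum, where 31.4% of all genes were called, 14.8% higher and 16.7% lower. The leading members higher in striatum were *Cox4i2* and 4 of complex I: *Ndufb10* (0.62), *Ndufs3* (0.36), *Ndufa1* (0.39) and *Ndufv3* (0.42, all log2 differences). *Cox4i2* ran from 3.96 through 4.52 to 5.38 CPM in striatum and from 1.51 through 2.61 to 3.75 in cortex, groups that did not overlap, with a log2 difference of 0.89 ± 0.12 (adjusted p = 9.03e-06). Those lower in striatum were led by *Cox7a1*, a muscle form of complex IV, at 1.25 ± 0.33 against 2.22 ± 0.62 CPM (log2 difference −0.80), by *mt-Co1* at 29220 ± 3179 against 40740 ± 10450 CPM (−0.44), and by *mt-Nd6* (−0.37), *Cox8a* (−0.32) and *Cox7a2* (−0.35). Of the 17 called members 9 stayed called without any 1 of the 10 mice. *Cox8a* lost its call without WT M4 and *Cox7a2* without WT M1 or WT M4, with values between −0.39 and −0.25 and between −0.42 and −0.25. The other 6, *Ndufa3* among the higher and *Ndufb4*, *Ndufb6*, *mt-Nd1*, *mt-Atp8* and *mt-Nd5* among the lower, stayed called in 3 to 9 of the 10 fits. The mitochondrial members were lower in striatum in 13 of 13, with a median of −0.23.

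At 12 months the same comparison in 9 mice called 91 members, where 51.1% of all genes were called, 25.0% higher and 26.1% lower. Of the nuclear members 79 were lower in striatum, with a median log2 difference of −1.79, and 1 was higher, *Sdha*, at 413 ± 14.6 CPM in striatum against 222.8 ± 39.7 in cortex (0.91). The nuclear members with the smallest p were *Ndufb4* (−3.26), *Cox7b* (−3.09), *Ndufa4* (−2.73), *Cox7a2* (−2.67) and *Ndufb9* (−2.78), and *Cox4i1* stood at 566 ± 50.2 CPM in striatum against 3253 ± 734 in cortex (−2.50). Of the mitochondrial members 8 were higher in striatum, led by *mt-Nd4* (1.33), *mt-Nd4l* (1.48), *mt-Nd5* (1.11) and *mt-Nd6* (1.03), and 3 were lower, *mt-Co3* (−0.53), *mt-Nd3* (−0.43) and *mt-Co1* (−0.36). *Cox4i2* did not pass the test there (0.09). With the counts of its copy added *mt-Co3* stood at −1.12 (adjusted p = 1.22e-09) and *mt-Nd3* at −0.42. *mt-Atp6* gave −0.07 as counted and 0.36 (adjusted p = 0.0029) with the counts of its copy added. The 12-month difference was read against transcript length, because other short genes also differed in this comparison.

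Transcript length was examined because most members are short: the longest annotated transcript had a median of 988.5 nt over nuclear members (360 to 6310) and 784 nt over mitochondrial members (204 to 1824). At 12 months the log2 difference between striatum and cortex rose by 0.84 per 2-fold increase in transcript length over 13583 other protein-coding genes, against −0.02 at 6 months. Other genes up to 1000 nt had a median of −1.71 at 12 months, ribosomal protein genes −1.94, and the nuclear members −1.79. A line fitted through the other genes gave a median of −1.35 at the lengths of the nuclear members, which lay lower than that line by a median difference of −0.41. Over 83 nuclear members alone the log2 difference rose by 0.31 per 2-fold increase in length, less than over the other genes. *Atp5b* was nearer to 0 than most, at 1240 ± 47.6 CPM in striatum against 1885 ± 85.2 in cortex (−0.60). Tissue, length and library composition cannot be told apart in this comparison.

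**Figure D4:**
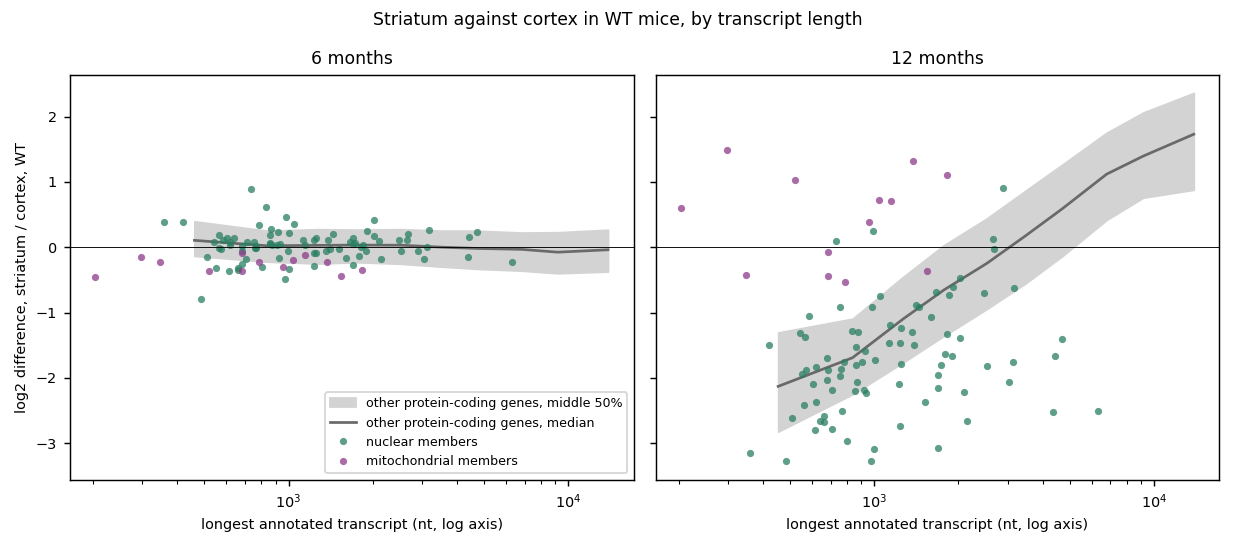
Log2 difference of striatum against cortex in WT mice at 6 and 12 months against the length of the longest transcript in nt (log axis) for nuclear and mitochondrial members, with the median and the middle 50% of other protein-coding genes by length. At 12 months the nuclear members had a median of −1.79, near the low values of other short genes, and at 6 months they lay around 0.

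Across single libraries the same quantity was measured as a length slope, the slope of log2(CPM + 0.1) on log2 transcript length over other genes with a mean CPM of at least 1. The mean slope was 0.47 in striatum and 0.46 in cortex at 6 months, 0.54 in striatum at 12 months and −0.02 in cortex at 12 months. These levels depend on the length used: with the median in place of the longest annotated transcript the means were −0.14 and −0.14 at 6 months, −0.10 in striatum and −0.38 in cortex at 12 months. The 12-month cortex libraries were then still lowest on average, from −0.508 to −0.239, and overlapped those of 6-month cortex, from −0.265 to 0.00197. Within each tissue and age, libraries with a lower slope had a larger share of nuclear member counts, with Pearson's r of −0.954 and −0.931 in striatum (n = 50 and 57) and −0.986 and −0.933 in cortex (n = 50 and 60) at 6 and 12 months. Spearman's rho was −0.957, −0.878, −0.979 and −0.967, and in these 4 relations each permutation p was 1e-05, the smallest that 100000 permutations can give (2e-05 adjusted over 8 relations). Without the 2 libraries farthest from the median slope r was −0.949, −0.914, −0.983 and −0.942, and with group means removed −0.965, −0.948, −0.986 and −0.935. Share and slope came from the same library, although no member entered the slope. The slope weighs long against short transcripts, so a set of short genes tends toward this sign. No other set of short genes was put through this test, and the p-values do not set the members apart from such genes.

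The share of mitochondrial members with copies had weaker relations of both signs: r was 0.493 in striatum at 6 months (permutation p = 0.0003, adjusted 0.0004), −0.401 in striatum at 12 months (0.00217, adjusted 0.00248), 0.294 in cortex at 6 months (0.0378, adjusted 0.0378) and −0.488 in cortex at 12 months (0.00011, adjusted 0.000176). Spearman's rho was 0.456, −0.423, 0.0689 and −0.406 (adjusted permutation p = 0.00143, 0.00143, 0.633 and 0.00143). Without the 2 farthest libraries r was 0.443, −0.267, 0.279 and −0.466, and with group means removed 0.512, −0.321, 0.249 and −0.459. Within single groups r ran from 0.0593 to 0.78 and from −0.729 to 0.281 in striatum and from −0.813 to 0.702 and from −0.876 to 0.649 in cortex at 6 and 12 months, so that in 3 of the 4 sets its sign differed between groups.

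**Figure D5:**
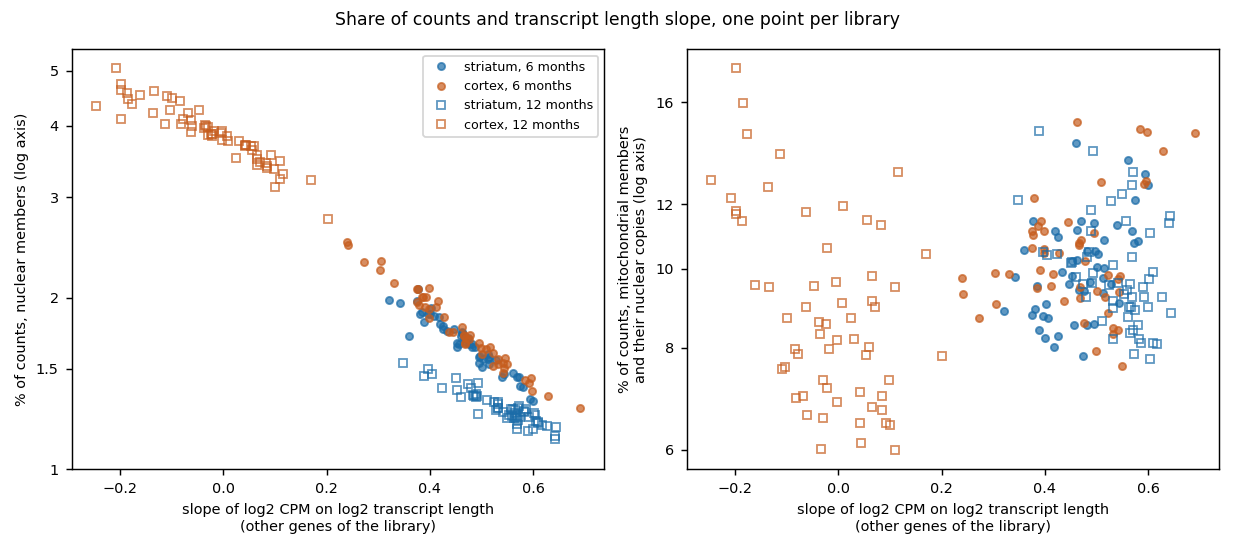
Share of all counts (percent, log axis) on the nuclear and on the mitochondrial members against the length slope of each library, for both tissues and ages. Nuclear shares fell along the slope in every panel (r from −0.986 to −0.931), and with the longest annotated transcript as the length the 12-month cortex slopes ran from −0.247 to 0.202.

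Likeness between members was measured over libraries as a description. After subtraction of group means, the members most like *mt-Co1* over 50 striatal libraries at 6 months were *mt-Nd1* (Pearson's r = 0.97), *mt-Nd4* (0.96) and *mt-Cytb* (0.95), while the median r with all other members was −0.33. At 12 months, over 57 libraries, they were *mt-Nd4* (0.98), *mt-Nd1* (0.97) and *mt-Nd5* (0.94), with a median r of 0.25. Those most like *Cox6a2* were *Cox6a1* (0.83), *Atp5g1* (0.80) and *Ndufs7* (0.79) at 6 months, and included *Atp5o* (0.74) and *Ndufa7* (0.72) at 12 months, beside a median r of 0.58 and 0.59. The median r with the other members was 0.40 and 0.30 for *Cox4i2* and 0.32 and 0.34 for *Ndufa4l2* at 6 and 12 months. Library depth and length slope are common to these points.

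Promoters are shown because the nuclear members lie on many chromosomes, each with a promoter of its own, and these could be compared by their letters. RefSeq (GRCm38.p6) gave the 250 bases before and 50 after the start for 66 of 86 nuclear members, and for the other 20, *Cox4i2*, *Ndufa4l2* and *Cox6a2* among them, no entry was matched. The motif of NRF1, a regulator of many respiratory genes, was searched as GCGCA, any base, GCGC, that of YY1 as AANATGGCG and the short site of the estrogen-related receptors as AAGGTCA, each on both strands with any overlap counted. NRF1 letters stood in 17 (25.8%), against 5.19% of 27025 promoters, YY1 letters in 10 (15.2%, against 2.76%) and the short site in 8 (12.1%, against 5.38%). Among the promoters of 17492 protein-coding genes, the nearer background because all members are protein-coding, the shares were 7.17% for NRF1, 3.64% for YY1 and 4.73% for the short site. Of members with NRF1 letters 7 belonged to complex I, 2 to complex II, 1 to complex III, 1 to complex IV and 6 to complex V. A site for each complex is written 5′ to 3′ on the strand of the gene, with the motif in capitals, followed by a YY1 site in *Atp5b*. The sites of *Uqcrc1* and *Atp5b* matched on the reverse strand.
Ndufa11 (complex I), chr17:56717692-56717721, plus strand: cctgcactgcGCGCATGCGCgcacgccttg
Sdha (complex II), chr13:74350319-74350348, minus strand: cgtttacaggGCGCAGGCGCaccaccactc
Uqcrc1 (complex III), chr9:108936643-108936672, plus strand: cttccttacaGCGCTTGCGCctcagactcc
Cox6a1 (complex IV), chr5:115349101-115349130, minus strand: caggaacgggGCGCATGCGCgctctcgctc
Atp5c1 (complex V), chr2:10080430-10080459, minus strand: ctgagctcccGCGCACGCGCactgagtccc
Atp5b (complex V, YY1), chr10:128083313-128083341, plus strand: acccggattcCGCCATGTTgagtcttgtg
A match describes letters only, and factor binding was not measured.

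Genes that serve the same machinery without being subunits were counted from lists in LacQ140 against WT+IPTG striatum, where 7.93% of all genes tested were called at 6 months and 9.44% at 12 months. The share of assembly factors called lay under these at both ages, and in the shorter lists a single gene moves the share by more than its distance from them. Of 47 assembly factors tested, 1 rose and 2 fell at 6 months, namely *Sco2*, a copper chaperone of complex IV (log2 fold change 0.33), *Bcs1l*, which inserts the iron-sulfur protein into complex III (−0.35), and *Ndufaf4*, a complex I assembly factor (−0.31). At 12 months 2 rose and none fell, *Sco2* (0.35) and *Sdhaf1*, an assembly factor of complex II (0.28). Of 5 electron carrier genes edgeR called 0 at both ages, with 2 at an unadjusted p under 0.05 at 6 months and 0 at 12 months. Of 14 genes of mitochondrial transcription and RNA handling 1 fell at each age, *Mterf1a* (−0.42) at 6 months and *Fastkd5* (−0.37) at 12 months. Of 12 nuclear regulators of respiratory genes *Ppargc1b* rose at 6 months (0.41), and *Esrra* (−0.28) and *Ppara* (−0.49) fell at 12 months. Of 13 antioxidant and uncoupling genes *Ucp2* fell at 6 months (−0.33) and *Ucp3* rose at 12 months (0.33). In cortex edgeR called 0 genes of these 5 lists in this comparison, with 4 and 16 assembly factors, 2 and 2 electron carriers, 1 and 5 genes of mitochondrial transcription, 2 and 1 regulators and 2 and 3 antioxidant and uncoupling genes at an unadjusted p under 0.05 at 6 and 12 months. DESeq2 counts were made for the subunits only.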

How the data were processed

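RNA-Seq expected counts per gene, which the authors deposited in 1 table for each age, were not normalised and 32.22% of their values above 0 were not whole, so they were rounded. The libraries were sequenced as paired-end reads of 100 bases, and per the labels GRCm38 was the genome. Aligner and counter were not given in the sources used here. Of 54532 gene identifiers, 54495 were matched to GENCODE vM21, which gave transcript lengths. Groups followed the labels.

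Per tissue and age all groups were fitted together with edgeR 4.0.16 (R 4.3.3; TMM scaling, quasi-likelihood F-test, group as the only factor) over genes with at least 1 count. Tissues were compared with the mouse as a block. A call was a Benjamini-Hochberg adjusted p under 0.05 over all genes tested and a change of at least 20%. Shares of all genes called use this threshold, so they are no background for counts of members at an unadjusted p under 0.05. Errors are SD over mice or SE of the log2 fold change. DESeq2 1.42.0 and other settings were alternatives. Members named throughout were Atp5b, Sdha, Cox4i1, Cox6a2, Cox7a1, Ndufa4l2, mt-Nd1, mt-Co1, mt-Cytb and mt-Atp6, with, in each comparison, the called members (with over 10, the 5 rising and the 5 falling with the smallest p); members named beyond these were chosen after their values were seen. Members and gene lists were chosen with earlier results of these data known. Nothing in the labels says that libraries of 1 mouse were repeated, so a library stands for a mouse. No pair of the 963 within groups came near sampling noise (chi-square per degree of freedom at least 6.15). The tests were checked on simulated counts. A few values of these lists are not reported here.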

Additional observations from a re-analysis of the deposited data

Results flagged for a closer look

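In each tissue, age and group, a library whose share of counts on the members stood apart from its group was looked for with Dixon's criterion, in 58 sets of values. It picked out 4, and chance picks out about 1 in 20. The nuclear members made up 1.47% of the counts of WT+IPTG M4 striatum at 12 months, where the next library of the group had 1.28%. They made up 2.31% in WT M4 cortex at 6 months, beside 1.78% in the next library. The mitochondrial members alone made up 10.97% in LacQ140_2M M2 cortex at 12 months, beside 7.54%, and 7.85% in LacQ140_8M F3 cortex at 12 months, beside 5.49%.

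The LacQ140 difference of Cox4i2 differed between tissues at 12 months by −0.57 on the log2 scale (edgeR's quasi-likelihood test, Benjamini-Hochberg adjusted p = 0.0374). It rests on the 12-month cortex libraries, whose mean length slope (−0.02) and nuclear share (3.902%) stood apart from those of striatum (0.54 and 1.29%). Genes outside the members held counts of member sequence: Gm10175 held 92.0% of the counts of Atp5g2 and itself, Gm28661 91.3% of those of mt-Co2 and itself, Gm10925 89.1% for mt-Atp6, Gm28437 88.9% for mt-Co3 and Gm28438 35.9% for mt-Nd3.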

How the results depend on the processing

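Of 226 recomputed counts of called members 219 stayed within 1.5 times the reported one, but 173 of them belong to the 16 comparisons with 0 members called, where 3 recomputed counts were above 0. The exceptions were, in LacQ140 against WT+IPTG, 12 members (2 groups alone) and 9 (2 groups alone with length slope) in cortex at 12 months instead of 0, 4 in striatum at 12 months (2 groups alone with length slope) instead of 2, and 1 in striatum at 6 months (WT groups pooled) instead of 4. They were also 2 instead of 1 for the difference between tissues at 12 months (edgeR's filterByExpr), and, in LacQ140_A against LacQ140 with 2 groups alone, 50 instead of 0 in cortex and 0 instead of 1 in striatum at 12 months. Their cause was not tested. Leaving out 1 library gave 1 to 5 members in striatum at 6 months, 1 to 4 at 12 months and 0 to 1 for LacQ140_A in striatum at 12 months. Leaving out 1 mouse gave 0 to 2 for the difference between tissues at 12 months and 12 to 21 for striatum against cortex in WT at 6 months. With the median in place of the longest transcript the mean length slope was −0.143 and −0.0996 in striatum and −0.139 and −0.381 in cortex at 6 and 12 months instead of 0.468, 0.538, 0.457 and −0.0228, while the 8 relations of the slope with the shares of the members kept their sign and stayed under 0.05. Of 2416 recomputed results of named members 2393 stayed the same, 9 were weaker, 13 were stronger and 1 was reversed. The reversed one was mt-Atp6 in striatum against cortex at 12 months, which turned from −0.07 to 0.36 with its copy added. In 82 others of them, with no call in either, the sign changed.

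Mice with the same number in different groups did not vary together (mean correlation of residuals 0.0209 to 0.0646 by tissue and age), so the number does not pair them. With the replicate block 3 members were called in striatum at 6 months (mt-Nd1 at an adjusted p of 0.0519), 2 at 12 months, and 1 for LacQ140_A in striatum at 12 months. Without the mouse as a block, striatum against cortex in WT gave 21 members at 6 months and 93 at 12 months, and the difference between tissues at 12 months gave 1, another gene.

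Low counts limited the rare forms: in LacQ140 against WT+IPTG striatum at 12 months the SE of the log2 fold change was 0.165 for Cox7a1, at 0.854 CPM in WT+IPTG, and 0.031 for Atp5b, at 1371 CPM.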
